A study of Mus musculus with 4 samples.

Results

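The Dlk1-Dio3 imprinted miRNA cluster was described in 4 mouse cell lines, on 1-colour Agilent miRNA arrays labelled with Cy3. Members were all array miRNAs, either arm, whose number belongs to a hairpin of the cluster, a rule that uses no measured value. There were 101 such members from 51 hairpins, of 1023 mouse miRNAs on the array. They were read by 269 probes and 4040 spots per array, and per the file headers every member's probes lie on chromosome 12 of mm9, within chr12:110801933-110981994.

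OPCL61 are glioma-initiating cells derived from oligodendrocyte precursor cells, and NSCL61 are glioma-initiating cells derived from neural stem cells; such cells can start a glioma when transplanted. The OPC line is one of oligodendrocyte precursors, the cells that mature into myelin-forming oligodendrocytes, and the NSC line is one of neural stem cells, the common source of neurons, astrocytes and oligodendrocytes. The labels state no genotype, strain, animal age or transforming agent for any line, and they refer the culture conditions of all 4 to earlier published work. Total RNA was purified with a TRIzol-based kit and 100 ng was labelled per array. Each line had 1 array, so that errors below are spreads over replicate spots of 1 array, and a line cannot be told apart from its culture. In bulk RNA, fewer cells with a miRNA and less of it per cell cannot be told apart either.

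The Dlk1-Dio3 domain is imprinted, meaning that the parental copies are expressed differently. The protein-coding genes Dlk1, Rtl1 and Dio3 are expressed from the paternal copy, whereas the noncoding RNAs Gtl2 (also called Meg3), antisense Rtl1, Rian and Mirg are expressed from the maternal copy and carry the miRNAs, one of the largest miRNA clusters of mammals. Its miRNAs are known for their high levels in the brain, the embryo and the placenta, and Gtl2 and its neighbours are silenced in some mouse induced pluripotent stem cell lines.

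The sequences of the members that gave a measurable signal are shown first, since the values below turn on them. Mature sequences are RefSeq's, annotated on GRCm38.p6 chromosome 12, written 5′ to 3′, and capitals mark the seed, bases 2 to 8, with which a miRNA pairs to its targets.
miR-494-3p: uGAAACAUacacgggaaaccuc
miR-758-5p: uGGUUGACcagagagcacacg
miR-370-3p: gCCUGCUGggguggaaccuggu
miR-134-5p: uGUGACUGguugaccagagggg
miR-770-3p: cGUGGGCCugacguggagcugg
The sixth measurable member, miR-487b-3p, is named without a mature sequence. Its pair of deposited probes is shown in its place, because the longer probe, with 1 more base at the 3′ end, gave nearly all of its signal.
miR-487b-3p, probe of 18 bases: aagtggatgaccctgtac
miR-487b-3p, probe of 17 bases: aagtggatgaccctgta

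The 5 printed seeds differ from each other. Of 97 members with a RefSeq sequence, 90 distinct seeds were found, and 7 seeds were shared by 2 members each, 14 members in all. miR-758-5p shared its seed with miR-1197-5p, which was not measurable in any line. miR-758-5p and miR-134-5p, whose hairpins lie in the same stretch of the cluster, hold the same run of 13 bases, marked by capitals below, at different distances from their 5′ ends.
miR-134-5p: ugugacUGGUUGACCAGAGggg
miR-758-5p: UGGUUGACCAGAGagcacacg
Because the run begins later in miR-134-5p, their seeds differ although the run is shared. The probes pair with the 3′ end, and those of both miRNAs reach into the run.

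The scanner software marks spots well above background. Where 50% or more of a probe's spots had that mark the probe was taken as measurable, and a miRNA was measurable through any probe. By this rule 206 of 1023 miRNAs were measurable in OPCL61, 228 in NSCL61, 139 in OPC and 170 in NSC. As a check, 57 viral miRNAs were counted too, of which 8 (14%) were so in OPCL61, 6 (10.5%) in NSCL61, 3 (5.26%) in OPC and 4 (7.02%) in NSC. The lowest spot well above background lay at 18.2, 17.3, 16.3 and 17.0 units of processed signal in the same order of lines. To scale the arrays, a shift was subtracted from the log2 values, which was 0.38 in OPCL61, 1.44 in NSCL61, −1.30 in OPC and −0.52 in NSC. This sets the upper quartile of the probes measurable on all arrays to 1 level, and scaled changes are relative to it. The labelled cell types were checked on marker miRNAs. Of 6 neural progenitor markers, 0 were measurable in OPCL61, 2 in NSCL61, 2 in OPC and 3 in NSC, with miR-9-3p at 12.4, 62.6, 368.7 and 1066 units in that order. In NSCL61 and OPC these were the arms of miR-9. NSC added miR-124-3p, at 33.0 units, which is also counted among the neuronal markers below. Of 5 oligodendrocyte-lineage markers, 0 were measurable in OPCL61, 1 in NSCL61, 1 in OPC and 2 in NSC. The oligodendrocyte-lineage miR-219-5p was at 12.6 units in OPC, not above background, and at 67.4 units in NSC, and miR-338-3p was at 21.0 units in OPC and 38.6 in NSC. These markers were thus not higher in OPC than in NSC. The list holds no marker chosen for the precursor stage, so these values neither bear out nor question the OPC label. Markers of fibroblasts, pericytes and smooth muscle were measurable for 2 of 9 in OPCL61, 4 in NSCL61, 1 in OPC and 0 in NSC, with summed signals of 60.9, 787, 32.8 and 10.74 units in that order. Of 8 blood and microglia markers 1 was measurable in each line, of 2 endothelial ones 1 in NSCL61 and 0 elsewhere, and of 22 pluripotent cell ones 3 in OPCL61, 2 in NSCL61, 1 in OPC and 1 in NSC. Neuronal markers were measurable for 1 of 12 in OPCL61, 4 in NSCL61, 1 in OPC and 6 in NSC, and astrocyte markers for 3 of 8 in OPCL61, 4 in NSCL61, 3 in OPC and 3 in NSC. The part of other cell types in the results below was not tested.

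Most of the cluster was not measurable in any of the lines. In OPCL61 6 of 101 members (5.94%) were well above background, against 20.1% of all mouse miRNAs. In NSCL61 it was 3 members (2.97%), against 22.3% of all, in OPC 2 members (1.98%), against 13.6%, and in NSC 1 member (0.99%), against 16.6%. Over all 4 lines, 6 members (5.94%) and 26.5% of all miRNAs were measurable at least once. In every line the members' share was also below that of the viral miRNAs. All 6 were measurable in OPCL61, and miR-494-3p alone was measurable in every line.

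The 95 other members stayed close to the signal of empty spots. The highest median signal of any of their probes was 10.69 units in OPCL61 (miR-341-3p), 9.21 in NSCL61 (miR-668-3p), 9.53 in OPC (miR-1188-3p) and 9.30 in NSC (miR-1188-3p), all below the lowest spot well above background. The median over these members was 0.226 units in OPCL61, 0.777 in NSCL61, 0.212 in OPC and 0.180 in NSC, against medians of 3.03, 3.29, 2.53 and 3.02 units over the 1000 negative control spots of the same arrays. Of the 95, miR-668-3p had 1 spot above background over the 4 arrays (0.645% of its spots) and the other 94 had none. Among these 94 were both arms of miR-127, which lies antisense to Rtl1 and represses its transcript in the mouse placenta. No member spot was saturated on any array.

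Measurable members were scattered along the cluster. They are given here by the cluster's usual stretches. The interval from Gtl2 to Rtl1, chr12:110801933-110824597, holds 12 members, of which 1, miR-770-3p, was measurable. The stretch antisense to Rtl1, chr12:110828676-110833597, holds 10 members and none was measurable. Rian, chr12:110849738-110856536, holds 6 members, of which 1, miR-370-3p, was measurable. The long stretch from miR-379 to miR-410, chr12:110947280-110981994, holds 73 members from 37 hairpins and gave the other 4, miR-758-5p, miR-494-3p, miR-487b-3p and miR-134-5p. This stretch is induced by the factor Mef2 in rat neurons. The 4 measurable members there come from 4 different hairpins. The gene spans of RefSeq on GRCm38.p6 divide the 97 matched members differently. They put 2, among them miR-770-3p, within Meg3, 20 within Rtl1, 6, among them miR-370-3p, within Rian, 17 within Mirg and 52 in none of these. By these spans no measurable member lay within Rtl1 or Mirg, and miR-758-5p, miR-494-3p and miR-134-5p lay in none of the 4 genes, while miR-487b-3p was not matched.

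Neighbours of a measurable member were not measurable with it. The other arm of each of the 6 hairpins and the members of the hairpins next to them made 26 miRNAs, of which 0 were well above background in any line, and their highest median was 9.82 units. Over all members 5.94% were measurable, so a set of 26 would hold few in any case. These neighbours were taken from the 51 hairpins only, without the further miRNAs of the locus given below. The farthest, miR-379-3p beside miR-370-3p, lay 90795 bases away. Of the adjacent hairpins' members the nearest was miR-679-5p, whose probe starts 218 bases from that of miR-494-3p and had a median of −1.02 units in OPCL61, −2.01 in NSCL61, −3.19 in OPC and −0.400 in NSC. miR-494-3p itself lay at 766.8 units in OPCL61. miR-758-3p, the other arm of miR-758-5p, had medians of −2.51 units in OPCL61 and −1.35 in OPC. The map of the cluster shows these isolated signals.

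**Figure D1:**
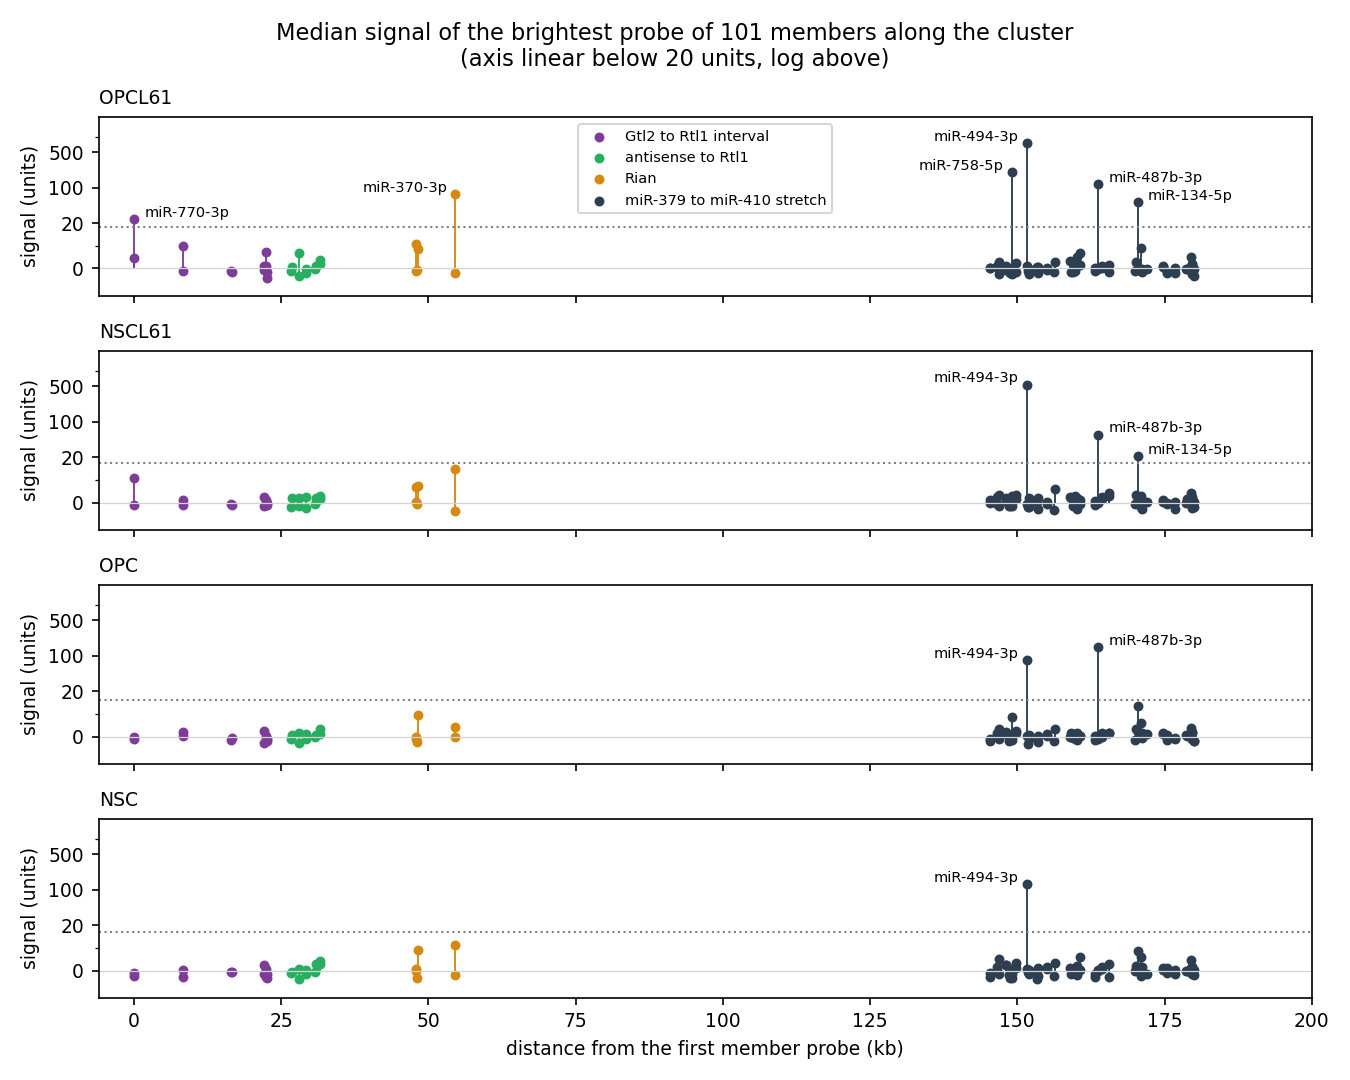
Median processed signal (units, background-subtracted and unscaled; linear below 20, log above) of the brightest probe of each of the 101 members, against distance from the first member probe in kb, 1 panel per line, with colours for the 4 stretches and a dotted line at the lowest spot well above background. Labelled members rise above the dotted line, 6 in OPCL61, 3 in NSCL61, 2 in OPC and 1 in NSC, while their neighbours stay near 0.

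miR-494-3p was the brightest member in 3 of the 4 lines. Its probe maps to chr12:110953585-110953598. In OPCL61 its median was 766.8 units (729.2 to 809.1 over 19 spots), and in NSCL61 it was 538.99 units (514.3 to 586.9 over 20 spots). In OPC it was 84.3 units (75.6 to 102.6 over 20 spots), and in NSC it was 131.9 units (124.1 to 137.6 over 16 spots). Before scaling, every spot of either glioma-initiating line was therefore brighter than every spot of either precursor line. A second probe of 15 bases, 1 longer, gave 327.2 units in OPCL61, 213.98 in NSCL61, 30.1 in OPC and 57.2 in NSC, the same order of lines.

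miR-487b-3p, at chr12:110965596-110965613, was measurable in every line but NSC. It had a median of 118.4 units in OPCL61 (105.1 to 127.4 over 16 spots) and 56.2 units in NSCL61 (45.2 to 64.4 over 18 spots). In OPC it was 148.6 units (119.1 to 210.5 over 20 spots), the highest member of that line, and in NSC it was −0.0574 units, with 0 of 20 spots above background. The spots of OPC and OPCL61 overlapped, those of NSCL61 lay below both, and NSC gave no signal. The 17-base probe gave 19.98 units in OPCL61, 11.4 in NSCL61, 29.4 in OPC and −0.485 in NSC, so that the last base of the probe accompanied a severalfold gap in signal and the order of lines was the same.

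miR-758-5p belongs to the hairpin whose other arm, miR-758-3p, targets the cholesterol transporter Abca1. Its probe at chr12:110951040-110951053 gave 201.1 units in OPCL61, with 18 of 18 spots above background and a range of 186.8 to 220.5. In NSCL61 it gave 2.71 units, in OPC 8.86 units and in NSC −3.02 units, with 0 spots above background in each. OPCL61 therefore stood apart from the other lines, which all lay at background. The 13-base probe, at 201.1 units in OPCL61, 0.145 in NSCL61, 7.89 in OPC and −3.49 in NSC, gave the same pattern.

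miR-370-3p comes from Rian and targets Cpt1a, a fatty acid oxidation enzyme, in human liver cells. At chr12:110856522-110856536 it gave 73.8 units in OPCL61 (61.4 to 84.9, 19 of 19 spots above background). It gave 14.6 units in NSCL61, with 7 of 19 spots above background, 4.15 units in OPC, with 0 of 20, and 11.3 units in NSC, with 2 of 20. Only OPCL61 passed the rule, and its lowest spot was brighter than every spot of the other lines.

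miR-134-5p, which represses Limk1 and limits dendritic spine size in rat neurons, was weakly measurable. At chr12:110972364-110972376 it gave 51.8 units in OPCL61 (45.9 to 59.4, 10 of 10 spots above background) and 21.2 units in NSCL61 (9.02 to 25.3, 7 of 10 spots). In OPC it gave 13.5 units with 0 of 9 spots above background, and in NSC 8.80 units with 2 of 9. One NSC spot reached 37.6 units, so the spots of NSCL61 and NSC overlapped, whereas those of OPCL61 lay above all others.

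miR-770-3p, which lies within the RefSeq span of Meg3, was the faintest. At chr12:110801965-110801975 it gave 23.97 units in OPCL61 (16.9 to 29.6, 9 of 10 spots above background). It gave 10.66 units in NSCL61, −0.270 in OPC and −0.968 in NSC, with 0 of 10 spots above background in each. Its shorter probes, of 10 and 11 bases, gave −0.210 and 2.46 units in OPCL61 and the probe of 13 bases 16.4 units, so its measurable signal rests on the probe of 12 bases. The plot of spots shows the 6 members in each line.

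**Figure D2:**
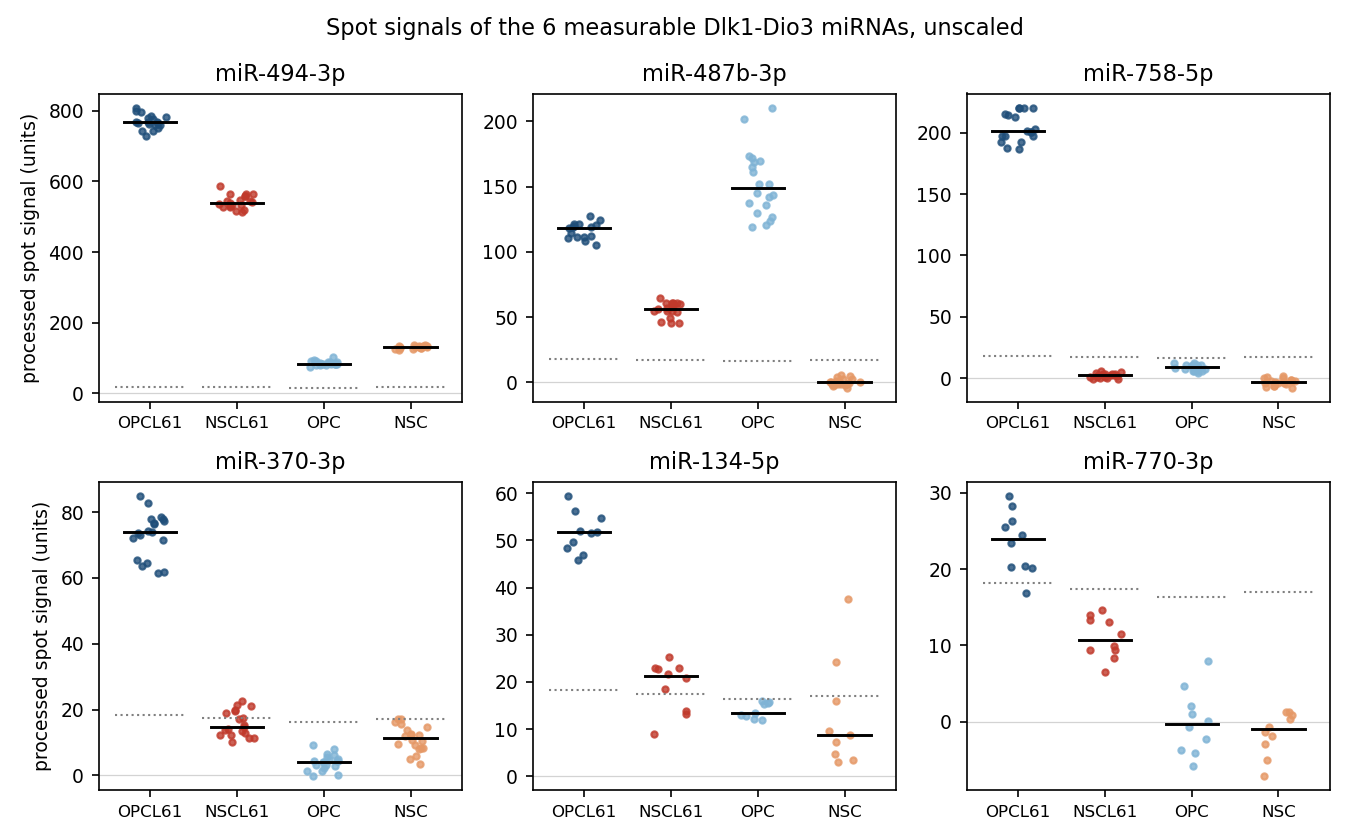
Processed signal of each replicate spot (units, unscaled, outlier spots left out) for the brightest probe of the 6 measurable members in OPCL61, NSCL61, OPC and NSC; black bars are medians and dotted lines the lowest spot well above background. OPCL61 spots lie highest for all members but miR-487b-3p, whose OPC spots (median 148.6) overlap those of OPCL61 (median 118.4).

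A change was called where a miRNA was measurable in both lines, its fold change reached 2 and its log2 change exceeded 2 spot standard errors. Where 1 line was below background, only a bound could be given, written as "at least", and a bound of 2-fold or more counted. The comparisons share lines, so they are not independent of each other, and with 1 array per line none has a test.

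OPCL61 was set against OPC to ask what set glioma-initiating cells apart from precursors of the cell type that they came from. miR-494-3p was 2.80-fold higher in OPCL61 (log2 change 1.48, spot SE 0.024), and miR-758-5p was at least 3.74-fold higher. miR-487b-3p was 4.15-fold lower (log2 change −2.05, spot SE 0.056). Thus, of the 6 members measurable in either line, 2 were higher and 1 was lower, against 14.5% higher and 20.6% lower among all miRNAs measurable in either line. All 6 were measurable in OPCL61, and 4 of them passed only through it and could not have been called lower. The median log2 change of the 6, bounds included, was 0.21, against 0 for all such miRNAs. Since 4 of the 6 are bounds that cannot lie below 0, this median could not be negative. Over the 2 members measurable in both lines the median was −0.28, against −0.33 for all miRNAs measurable in both.

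Set against the median log2 change of −0.33 over the 131 miRNAs measurable in both lines, miR-494-3p was 1.81 above and ranked 14 from the highest, and miR-487b-3p was 1.72 below and ranked 8 from the lowest. The shift between these arrays was 1.68. Without scaling miR-494-3p was 8.96-fold and miR-758-5p at least 11.98-fold higher, and the change of miR-487b-3p was −0.37, no longer called. Also without scaling, miR-370-3p was at least 4.27-fold and miR-134-5p at least 3.02-fold higher in OPCL61. With scaling the bound of miR-370-3p was 1.33-fold and miR-134-5p and miR-770-3p had no bound above 1. The second probe of miR-494-3p gave a log2 change of 1.77 and that of miR-487b-3p −2.09, in the same directions as the first.

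NSCL61 was set against NSC to ask the same of the neural stem cell lineage. No member was called in either direction, of 3 measurable in either line, against 11.8% higher and 38.8% lower among 245 miRNAs. miR-134-5p and miR-487b-3p were measurable in NSCL61 but not in NSC, and could not have been called lower. miR-494-3p, measurable in both, had a log2 change of 0.09 (spot SE 0.015). That was 1.12 above the median of −1.03 over the 153 miRNAs measurable in both lines, and ranked 37. The shift of 1.95 between these arrays was the largest of the 4 comparisons. Without it, miR-494-3p was 4.14-fold higher in NSCL61 and miR-487b-3p at least 3.09-fold higher, so for both the call depends on the scaling. The second probe of miR-494-3p had a scaled log2 change of −0.08, on the other side of 0.

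The change of miR-494-3p was thus 1.48 in the oligodendrocyte precursor lineage and 0.09 in the neural stem cell lineage, and without scaling 3.16 and 2.05. That difference between lineages was not tested, since each has 1 pair of arrays.

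OPC was set against NSC to see how the precursor lines differed from each other. miR-487b-3p was at least 14.5-fold higher in OPC, and at least 8.41-fold higher without scaling. It was the 1 member called of 2 measurable, and since it was measurable in OPC alone it could not have been called lower, against 14% higher and 11.5% lower among 200 miRNAs. miR-494-3p had a log2 change of 0.17 with scaling and −0.61 without, neither of them called.

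OPCL61 was set against NSCL61 to compare glioma-initiating cells of the 2 origins. Each of the 6 measurable members was higher in OPCL61 and 0 were lower, against 34.8% higher and 12.1% lower among 256 miRNAs. miR-758-5p was at least 23.7-fold higher, miR-370-3p at least 8.29-fold and miR-770-3p at least 2.71-fold. These 3 were measurable in OPCL61 alone and could not have been called lower. Among the 3 measurable in both lines, miR-134-5p was 5.24-fold, miR-487b-3p 4.38-fold and miR-494-3p 2.96-fold higher (log2 changes 2.39, 2.13 and 1.56). Their median of 2.13 compares with 0.38 over the 178 miRNAs measurable in both. The shift here was −1.06, and without it miR-494-3p at 1.42-fold and miR-770-3p at 1.30-fold were no longer called, while the other 4 stayed between 2.10-fold and at least 11.3-fold higher.

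Across 6 ways of scaling, including none, some calls in 3 of the 4 comparisons held throughout. The 6 ways are not separate checks. For OPCL61 minus OPC, leaving members out of the percentile gave a shift of 1.66, close to 1.68 in the main scaling. The percentile over all probes gave a shift of 0.16, close to no scaling. miR-494-3p (log2 change 1.41 to 3.16) and miR-758-5p (bound 1.83 to 3.58) were higher in OPCL61 than in OPC in 6 of 6. With another background correction, normexp, the bound of miR-758-5p was 0.48, no longer called. miR-487b-3p was higher in OPC than in NSC in 6 of 6 (bound 3.07 to 4.13). miR-758-5p, miR-370-3p, miR-134-5p and miR-487b-3p were higher in OPCL61 than in NSCL61 in 6 of 6, with miR-487b-3p as low as 1.001. The lower level of miR-487b-3p in OPCL61 than in OPC was called in 4 of 6 (−2.34 to −0.37).

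**Figure D3:**
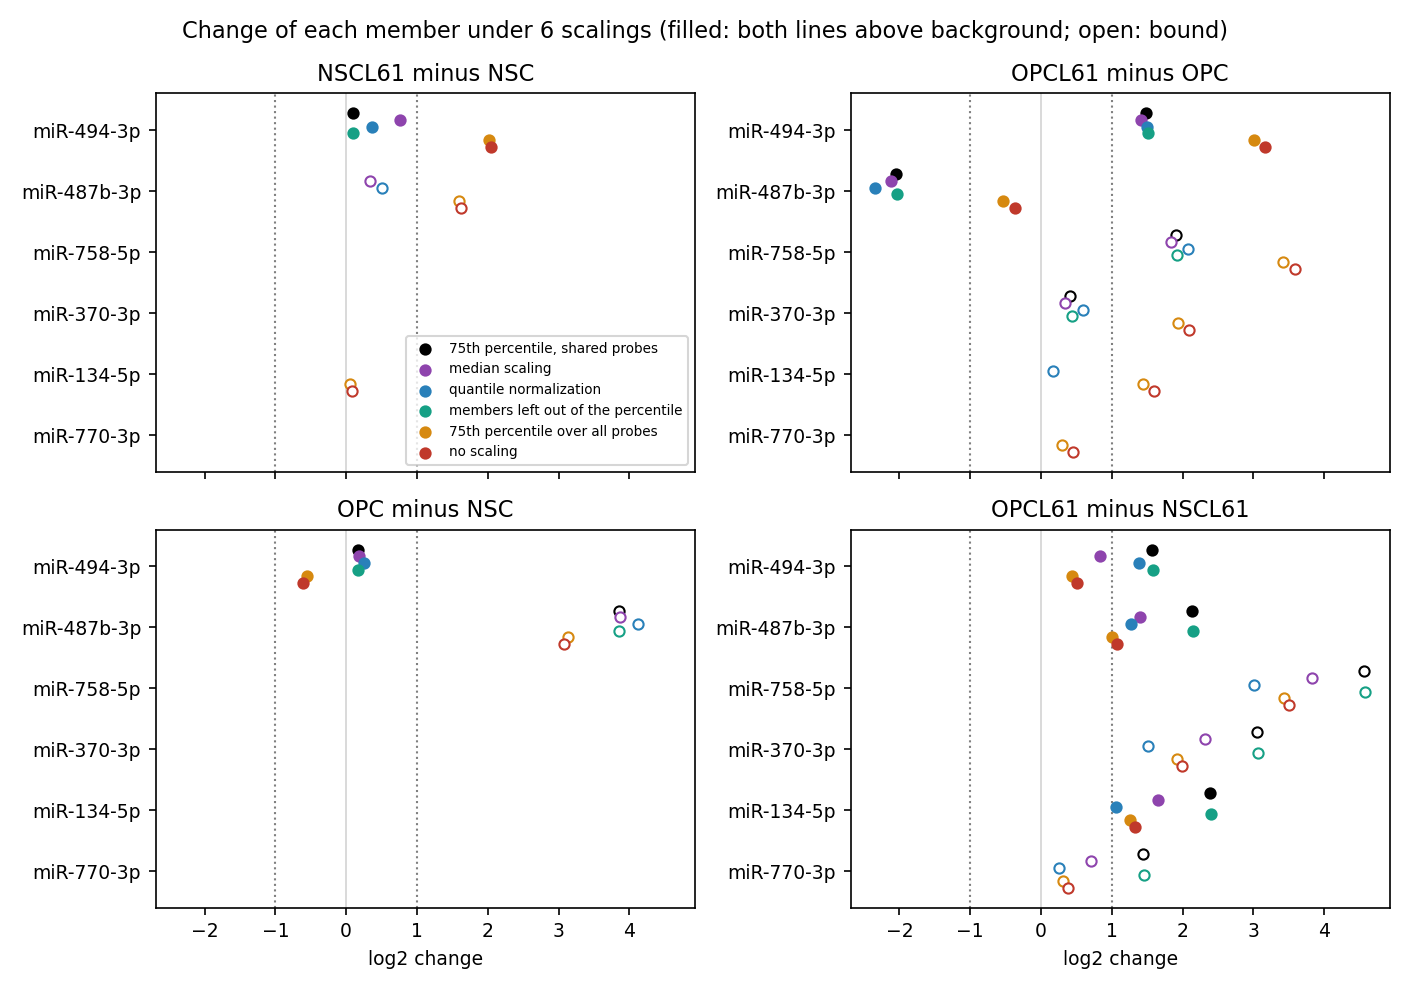
Log2 change of each measurable member (first line minus second) in the 4 comparisons under 6 scalings, marked by colour; filled points are members measurable in both lines, open points are bounds, and dotted lines mark 2-fold. Members with no point had no bound above 1 or were measurable in neither line. miR-758-5p stays beyond 2-fold in both comparisons that show it, whereas miR-494-3p in NSCL61 minus NSC runs between 0.09 and 2.05.

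Glioma-initiating and precursor lines were also fitted together with limma over both lineages, so that its error is the disagreement of the lineages, without any from repeated cultures. Of 206 miRNAs measurable on at least 2 arrays, 1 (0.485%) passed an adjusted p of 0.05, and 50 had an unadjusted p under 0.05. Of the 3 members in this fit, 0 passed, also at an unadjusted p under 0.05. miR-494-3p had a log2 difference of 0.79 (SE 0.56, limma adjusted p = 0.44), with scaled changes of 1.48 and 0.09 in the lineages, the second of them not called. miR-487b-3p had −1.15 (SE 0.83, adjusted p = 0.44) and miR-134-5p −0.94 (SE 0.65, adjusted p = 0.43). Spots below background enter this fit at the lowest measurable signal of their array. This holds for all spots of miR-134-5p in OPC and of miR-487b-3p in NSC, and for most of those of miR-134-5p in NSC. The negative difference of miR-134-5p thus rests on scaled lowest signals and was not a measured decrease. Its unscaled medians were higher in OPCL61 than in OPC (51.8 against 13.5 units) and in NSCL61 than in NSC (21.2 against 8.80). The log2 shifts between these pairs of arrays were 1.68 and 1.95, and with scaling neither pair gave a bound above 1. With scaling the values thus show no direction for miR-134-5p. For miR-487b-3p a decrease was measured only between OPCL61 and OPC, with scaling. NSCL61 gave 56.2 units of it and NSC −0.0574. Without scaling, miR-494-3p had a difference of 2.61 (limma adjusted p = 0.0155), and with scaling over all probes 2.51 (limma adjusted p = 0.0395). In these settings limma called 23 and 14 of the 206 miRNAs. Without scaling the median log2 change over miRNAs measurable in both lines was 1.35 in OPCL61 minus OPC and 0.93 in NSCL61 minus NSC.

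The cluster's share of the summed miRNA signal was small in every line. It was 1.30% in OPCL61, 0.245% in NSCL61, 0.725% in OPC and 0.169% in NSC, a measure that needs no scaling between arrays. Without miR-494-3p the shares were 0.492% in OPCL61, 0.0308% in NSCL61, 0.462% in OPC and 0% in NSC. By the scanner software's total signal per miRNA they were 1.48%, 0.250%, 0.709% and 0.184% in the same order. The share was thus higher in both lines of the oligodendrocyte lineage than in both lines of the neural stem cell lineage, with 1 array behind each value. It is a ratio of the members' sum, 1236 units in OPCL61, 616 in NSCL61, 233 in OPC and 131.94 in NSC, to the array's, 95405, 251365, 32134 and 78040 units in that order. By the members' sum alone NSCL61 lay above OPC, and the share reverses that order through the totals.

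The lines in which a member was measurable can be set beside the same patterns over the array. Measurable in OPCL61 alone were 3 members, miR-370-3p, miR-758-5p and miR-770-3p, and 16 of the 271 miRNAs measurable in any line (5.9%). Measurable in all 4 lines were 1 member and 105 miRNAs (38.7%). miR-134-5p belonged to the 21 miRNAs (7.75%) measurable in OPCL61 and NSCL61 only, and miR-487b-3p to the 18 (6.64%) measurable everywhere but in NSC.

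A list of 12 further miRNAs of the same locus, outside the 51 hairpins, held 5 that were measurable (41.7%), against 26.5% of all mouse miRNAs. miR-1247-3p, which lies near Dio3, gave 61.7 units in OPCL61 against 0.782 in NSCL61, 3.08 in OPC and −2.51 in NSC, so OPCL61 again stood apart. miR-432, within the stretch antisense to Rtl1, gave 25.4 units in OPCL61, 6.88 in NSCL61, 23.8 in OPC and 0.481 in NSC. It was thus measurable in the oligodendrocyte lineage alone, and with scaling it was 2.63-fold lower in OPCL61 than in OPC. miR-882 gave 5.78 units in OPCL61, 1.33 in NSCL61, 5.84 in OPC and 41.9 in NSC, and was at least 9.64-fold lower in NSCL61 than in NSC. miR-882 was thus measurable in NSC alone, as were 13 of the 271 miRNAs measurable in any line (4.8%) and none of the members. miR-3072-5p gave 124.5 units in OPCL61, 134.01 in NSCL61, 33.3 in OPC and 177 in NSC. It was 5.18-fold lower in NSCL61 than in NSC with scaling, whereas the unscaled medians were less than 2-fold apart. miR-1906 gave 86.0 units in OPCL61, 81.4 in NSCL61, 31.0 in OPC and 13.4 in NSC, but its probes also match the X chromosome, so its signal cannot be placed.

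Among 10 miRNAs of other imprinted loci, 4 were measurable (40%), against 26.5% of all mouse miRNAs. By line these were 2 in OPCL61, 3 in NSCL61, 1 in OPC and 3 in NSC. miR-296-5p, from the Gnas locus, gave 183.8 units in OPCL61, 105.4 in NSCL61, 46.7 in OPC and 70.7 in NSC. miR-483-5p, from an intron of Igf2, gave 84.0 units in OPCL61, 28.6 in NSCL61, 15.8 in OPC and 43.8 in NSC. In another large mouse group, that of miR-669, miR-467, miR-466 and miR-297, 3 of 60 were measurable in OPCL61, 14 in NSCL61, 1 in OPC and 7 in NSC. These were 5%, 23.3%, 1.67% and 11.7% of the group, against 20.1%, 22.3%, 13.6% and 16.6% of all mouse miRNAs. NSCL61 thus held the most measurable miRNAs of the group, as it did over the whole array, whereas in the Dlk1-Dio3 cluster it was OPCL61.

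**Figure D4:**
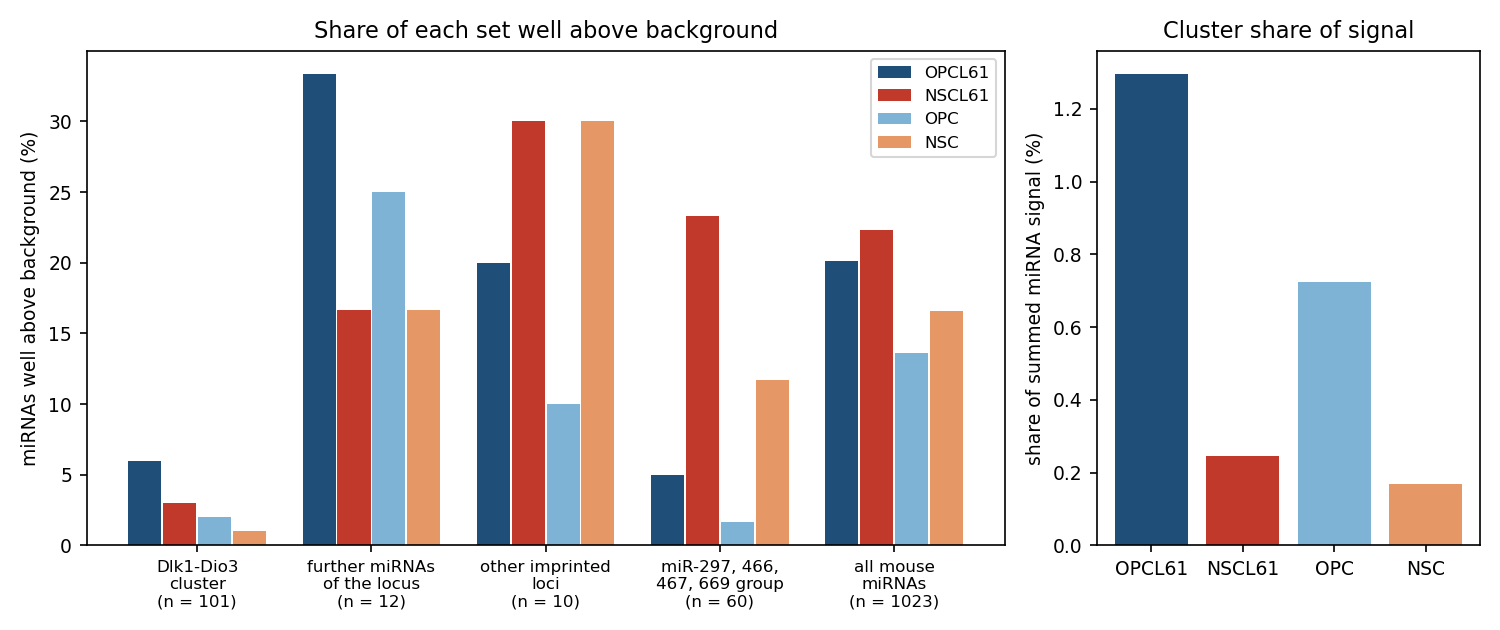
Left, share of each set of miRNAs that was well above background (%) in OPCL61, NSCL61, OPC and NSC, with the set size n under each group of bars; right, share of the summed unscaled miRNA signal (%) from the cluster in each line. The cluster's share lies at 5.94% or below in every line, against 13.6% to 22.3% of all mouse miRNAs, and its signal share is highest in OPCL61 at 1.30%.

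What the measurable members share in sequence was examined last. The GC content of the 5 with a RefSeq sequence ran from 45.5% to 72.7%, with a median of 59.1%, against 23.8% to 76.2% with a median of 48.9% for the 92 others. The 16 probes of the 6 measurable members, miR-487b-3p included, were 10 to 18 bases long with a median of 13, against 10 to 22 with a median of 16 for the 253 probes of the other members. Array probes are cut to even out binding, so that probe length and GC content go together, and their part in which members were measurable was not tested. For 4 of the 5, and for 94 of all 97 matched members, no other RefSeq mouse miRNA held the full complement of any of their probes. The exception was miR-770-3p, whose probe of 10 bases also matches miR-7087-5p, but that probe gave no signal.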

How the data were processed

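Total RNA of 4 mouse cell lines was measured on 1 array each. Per the submitters' processing notes, Agilent Feature Extraction, version 10.7.3.1, quantified the images. The deposited spot intensity, per the file headers, is background-subtracted and spatially detrended, not normalized between arrays, and all 4 arrays share 1 slide and 1 scan. The authors' deposited series table holds the same intensity values (largest difference 0). Per the file headers, further columns hold flags with no unit, 0 or 1, and the total signal per miRNA.

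Outlier spots (182 to 224 member spots per array) were left out, values were raised to the array's lowest spot well above background, and log2 was averaged over 10 to 40 spots per probe. Arrays were scaled by the 75th percentile over the 182 probes measurable on all 4, and shifts were centred. A miRNA's level is that of its brightest probe. limma 3.58.1 in R 4.3.3 (trended variance, lineage term, Benjamini-Hochberg adjustment) was the 1 test made, and it was tested on simulated data. In total, 4 comparisons were made. Alternatives changed the scaling, the background correction (normexp, offset 50), the probe summary, the flags and the thresholds.

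Members and lists were chosen with earlier results of these data known. By rule, members measurable on any array are named with values on all 4, as are measurable members of the lists where a result turns on them, and of the others those with spots above background or the highest median of a line. miR-127, miR-679-5p, miR-758-3p and miR-1197-5p were named after their values were seen. Of 101 members, 94 matched the RefSeq table by name and 3 through a later suffix of the name. The number of arrays limits precision.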

Additional observations from a re-analysis of the deposited data

How the results depend on the processing

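With 1 array per line, no replicate could be left out. The labels give no replicate numbers to pair lines by. The lineage term of limma pairs each glioma-initiating line with the precursor line of the same lineage. The limits are those of single arrays: spot errors hold no biological spread, scaling shifts were large, and members below background have bounds only. No result changed direction in a called value. Without scaling, and equally with scaling over all probes, 2 members were higher in NSCL61 than in NSC (0 in the main setting), 4 were higher in OPCL61 than in OPC (2), 0 were lower there (1), and 1 member passed limma (0). With normexp 1 was higher in OPCL61 than in OPC, as miR-758-5p lost its call (0.48). Counting only members measurable in both lines left 1 higher in OPCL61 than in OPC, 0 in OPC than in NSC, and 3 in OPCL61 than in NSCL61. Requiring every probe left 1 member measurable in NSCL61, and the software's own flag gave 5 in NSCL61 and 3 in NSC. The other 106 counts stayed within 1.5 times of their main value. Of the values for single members, medians and shares, 112 moved and 2 (miR-494-3p in limma) passed the threshold. Over all miRNAs limma called 1 of 206, but 14 with scaling over all probes, 23 without scaling, 30 with median scaling, 24 with members left out of the percentile, 5 with quantile normalization, 35 with the mean over probes, 0 with total gene signal and 0 of the 105 measurable on all arrays. The causes were not tested. limma over all mouse miRNAs could not be fitted and was not run.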
